A study of Homo sapiens with 18 samples.

Results

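The genes described here encode the folding and quality-control machinery of the endoplasmic reticulum (ER) and the sensors of the unfolded protein response. They were taken from the count table by symbol: 39 symbols for ER chaperones, disulfide isomerases, ER-associated degradation, the translocon and the stress sensors were all present among 35238 rows, and 38 passed the low-count filter. DERL3, a derlin of ER-associated degradation, did not pass, with 0 to 2 counts in each library. Expression was measured by RNA sequencing in HepG2, a human hepatoblastoma-derived liver cell line, in a study of compounds that target the nuclear receptor LRH-1. Each of 6 groups held 3 libraries, and all cells were treated in medium with charcoal-stripped serum, which is depleted of steroids and other lipophilic molecules. The groups were the vehicles DMSO at 0.1% and Ethanol at 0.1%, 3 small molecules given at 10 µM (6N, 10CA and 6N-10CA), and DLPC, a phospholipid, given at 100 µM. The length of treatment is not given in the sources used here, and no group received an inducer of ER stress according to the labels.

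Proteins that enter the secretory pathway are threaded through the translocon, folded with the help of chaperones and disulfide isomerases, and, where folding fails, returned to the cytosol for degradation. When unfolded proteins accumulate, the membrane sensors IRE1 (gene ERN1), ATF6 and PERK (gene EIF2AK3) start the unfolded protein response. IRE1 splices XBP1 mRNA, ATF6 is cleaved to release a transcription factor, and PERK phosphorylates a translation initiation factor, which lowers protein synthesis and raises ATF4. Hepatocytes secrete large amounts of plasma protein and keep this machinery at a high level. Counts per gene show neither the splicing of XBP1, nor the cleavage of ATF6, nor the phosphorylation of PERK, so the levels below are mRNA amounts alone.

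Depth was even, at 28135967 to 34992442 counts in a library. Levels are given as CPM, the counts per 1000000 counts of the library, and the floor of 3 counts equals 0.0857 to 0.107 CPM. Floors and counts cover counting error only, since amplified reads are not independent molecules. All 10 hepatocyte and hepatoblastoma markers were expressed, with ALB, the gene of albumin, at 8060 to 10553 CPM and HNF4A at 192 to 228 CPM in every library. The 10 stromal, endothelial and blood cell markers summed to 423 to 443 CPM with DMSO, 363 to 408 with 6N, 414 to 468 with 10CA, 393 to 399 with 6N-10CA, 442 to 497 with Ethanol and 472 to 554 with DLPC. LYZ and CD68 made up most of these sums, while COL1A1, COL3A1, DCN and PTPRC stayed at or below 0.514 CPM in every library and HBB was at 0 in all of them. The part of these markers in the results below was not tested. CPM are relative to the whole library, so that less RNA of a gene per cell and fewer cells that express it cannot be told apart.

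Regulatory sequences of 3 kinds are known to bind the transcription factors of the response, and they are shown because they are what many of these genes share by sequence. ERSE, bound by ATF6 with the factor NF-Y, was searched as CCAAT, 9 bases of any kind and CCACG. ERSE-II was searched as ATTGG, 1 base of any kind and CCACG, and the core of the unfolded protein response element (UPRE) as TGACGTG. Both strands were searched in windows from 250 bases before to 50 bases after each transcript start in RefSeq (GRCh38.p14), where 35 of the 39 genes had a window. ERSE was found in 8 of these 35 genes, against 25 of the 27305 genes of the table (0.0916%). ERSE-II was found in 3, against 19 of 27305 (0.0696%), and the UPRE core in 5, against 654 (2.4%). The ERSE genes were CALR, CANX, CRELD2, HSP90B1, HSPA5, PDIA6, SERP1 and XBP1, and the ERSE-II genes HERPUD1, HYOU1 and SDF2L1. In HYOU1 the UPRE core overlapped an ERSE-II match. The matches are a description of these letters, not evidence that a factor was bound. Matches of 7 of these genes follow, read from CCAAT or ATTGG with the searched letters in capitals, to show the bases that lie between them.
HSPA5 ERSE, chr9:125241391-125241409, minus strand: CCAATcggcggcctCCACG
XBP1 ERSE, chr22:28800603-28800621, minus strand: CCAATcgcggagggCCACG
HSP90B1 ERSE, chr12:103930216-103930234, plus strand: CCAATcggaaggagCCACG
HSP90B1 ERSE, chr12:103930321-103930339, opposite to the gene, on the minus strand: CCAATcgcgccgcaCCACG
CALR ERSE, chr19:12938384-12938402, opposite to the gene, on the minus strand: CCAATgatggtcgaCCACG
CRELD2 ERSE, chr22:49918554-49918572, opposite to the gene, on the minus strand: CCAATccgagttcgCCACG
HERPUD1 ERSE-II, chr16:56932025-56932035, plus strand: ATTGGgCCACG
SDF2L1 ERSE-II, chr22:21642114-21642124, opposite to the gene, on the minus strand: ATTGGtCCACG

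Upstream sequences of 2 genes are printed in full. HSPA5 encodes BiP, the master chaperone whose promoter is the textbook ERSE promoter. AGR2 was the 1 member of the set that was called in the main fit, described below. Each sequence is the 250 bases before the RefSeq start, as the gene reads, with the searched ERSE letters in capitals. The search took exact letters only, so copies that differ in any of these letters are not marked. The AGR2 window held none of the 3 searched sequences, which says only that these letters are not in this window.
HSPA5, chr9:125241344-125241593, minus strand: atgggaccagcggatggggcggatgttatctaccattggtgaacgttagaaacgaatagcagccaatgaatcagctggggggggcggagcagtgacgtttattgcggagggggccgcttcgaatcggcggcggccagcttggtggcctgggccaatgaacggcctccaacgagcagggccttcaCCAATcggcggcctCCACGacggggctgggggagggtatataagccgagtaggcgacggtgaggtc
AGR2, chr7:16805000-16805249, minus strand: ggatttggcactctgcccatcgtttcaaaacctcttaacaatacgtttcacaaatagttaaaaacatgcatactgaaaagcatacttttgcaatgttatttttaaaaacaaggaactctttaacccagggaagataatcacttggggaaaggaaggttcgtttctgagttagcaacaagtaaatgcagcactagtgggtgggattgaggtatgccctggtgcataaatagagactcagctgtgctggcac

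**Figure D1:**
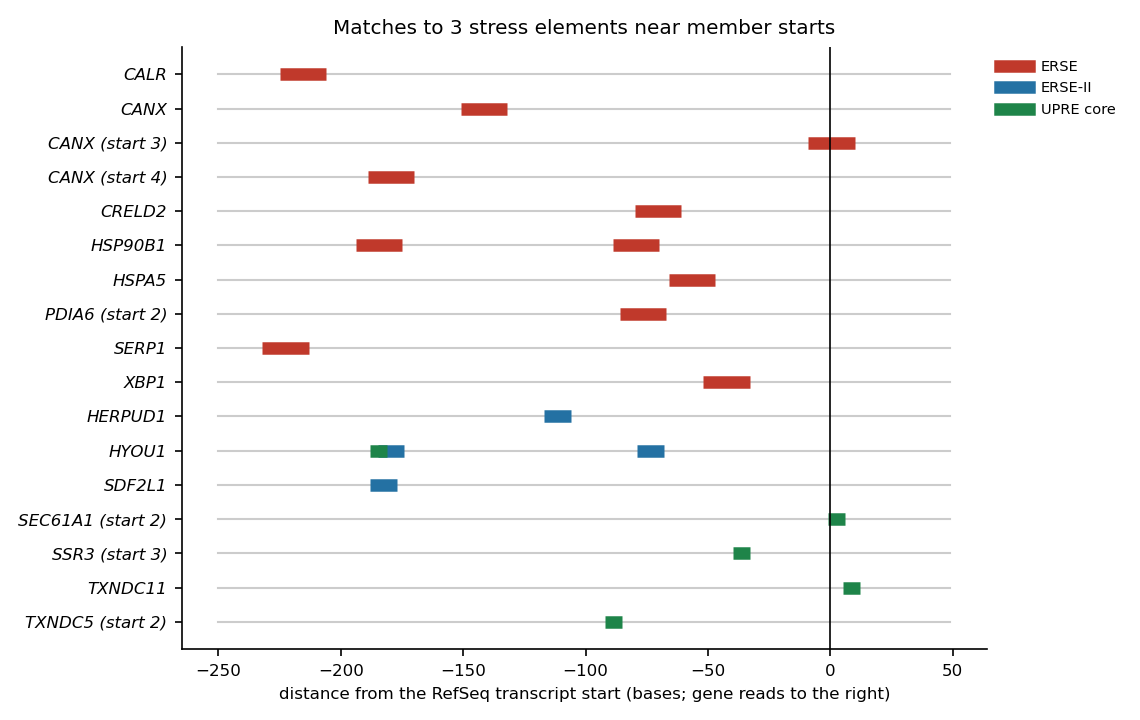
Positions of the matches to ERSE, ERSE-II and the UPRE core in the RefSeq windows of the genes, in bases from the transcript start (vertical line at 0), with 1 grey line per window that holds a match. The HSPA5 match began at -66 and the XBP1 match at -52, and in HYOU1 the UPRE core (first base at -188) is drawn over part of an ERSE-II match.

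The genes covered a wide range of levels. Per kilobase of exon (GENCODE release 29, GRCh38), the median over the 18 libraries was highest for P4HB, a protein disulfide isomerase, at 449 CPM per kb, followed by HSPA5 at 347 CPM per kb. XBP1 stood at 161 CPM per kb, EIF2AK3 at 6.59, ATF6 at 4.83 and ERN1 at 1.62 CPM per kb. AGR2, a secretory-pathway isomerase best known from mucus-producing epithelia, had the lowest level of the 38, at 1.09 CPM per kb. Within a gene the highest library exceeded the lowest by 1.07-fold for TXNDC5, a thioredoxin-domain isomerase, and by 2.14-fold for AGR2, the extremes of the set.

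In a fit of group means alone, with no term for the replicate number, few of the genes passed the test in any comparison with a vehicle. A gene counted as called below an adjusted p of 0.05 in the quasi-likelihood test of edgeR, adjusted over 14797 genes. On that rule 1 of 38 fell with 6N, 0 were called with 10CA, 1 fell with 6N-10CA and 1 fell with DLPC against Ethanol. Over all genes tested, 1.14%, 0%, 0.264% and 1.04% were called in these comparisons. The gene that fell was AGR2 each time. With a term for the replicate number added to the fit (the block), 11 of 38 fell for 6N, 1 for 10CA, 14 for 6N-10CA and 5 for DLPC. Of all genes tested, 2.39%, 0.0879%, 2.12% and 3.14% fell with the block. The results that follow are from the fit without the block unless stated. That fit counts the spread between replicate numbers as error, so a missing call does not show that a gene was unchanged. At an unadjusted p under 0.05 there were 15 of 38 genes for 6N, all lower, 7 lower and 1 higher for 10CA, 15 for 6N-10CA, all lower, and 8 lower and 2 higher for DLPC. Over all genes tested, 5.29% were lower and 4.06% higher at that p for 6N, 3.6% and 3.38% for 10CA, 5.14% and 4.77% for 6N-10CA, and 6.2% and 6.84% for DLPC. For 10CA, DESeq2 called 1 of the 38 (SSR2) and limma-voom 0. The shares of all genes called by DESeq2 and limma-voom are not given in this report. Counts by these tools therefore have no background to be read against. The 3 small molecules share the DMSO libraries, so their values against DMSO are not independent of one another.

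AGR2 (chromosome 7, 16791811 to 16833433, minus strand, in GENCODE release 29 on GRCh38, whose first start lies upstream of the RefSeq window printed above) was measured at 3.76, 4.39 and 4.61 CPM in DMSO replicates 1, 2 and 3, and at 2.15, 2.32 and 2.19 CPM with 6N. Libraries treated with 10CA had 3.59, 3.38 and 3.25 CPM and those treated with 6N-10CA 2.59, 2.51 and 2.74 CPM. Ethanol libraries had 3.66, 4.02 and 4.20 CPM and DLPC libraries 2.48, 2.94 and 2.81 CPM. All libraries of each treatment lay below all libraries of its vehicle, and the 6N libraries were the lowest of the 18. These levels rest on 66 to 141 counts per library.

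With 6N, AGR2 fell from 4.26 ± 0.44 to 2.22 ± 0.0837 CPM (mean ± SD, n = 3). The log2 change was -0.94 (SE 0.13; edgeR adjusted p = 0.000268), and the call held without each of the 6 libraries in turn. With 6N-10CA the change was -0.70 (SE 0.12; adjusted p = 0.0152 by edgeR), to 2.61 ± 0.119 CPM (n = 3). That call was lost without DMSO replicate 2 or 3 or any of the 3 6N-10CA libraries, with log2 changes of -0.78 to -0.64 over the 6 omissions. With 10CA the log2 change was -0.32, with a 95% interval of -0.57 to -0.06 (adjusted p = 0.672 by edgeR). DLPC at its own dose stood at -0.53 against Ethanol (SE 0.13; adjusted p = 0.0495 by edgeR). The DLPC call was lost without any 1 of the 6 libraries (-0.58 to -0.46), and robust estimation of the dispersions gave an adjusted p of 0.0586 by edgeR. Robust estimation had been used in a first fit of these data, and the default setting reported here replaced it after those results were seen, so the DLPC call rests on that change. It was also lost with limma-voom (0.0564), without the low-count filter (0.127 by edgeR) and with only the compared groups in the fit (0.151 by edgeR), and the last of these also ended the 6N-10CA call (0.194 by edgeR).

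**Figure D2:**
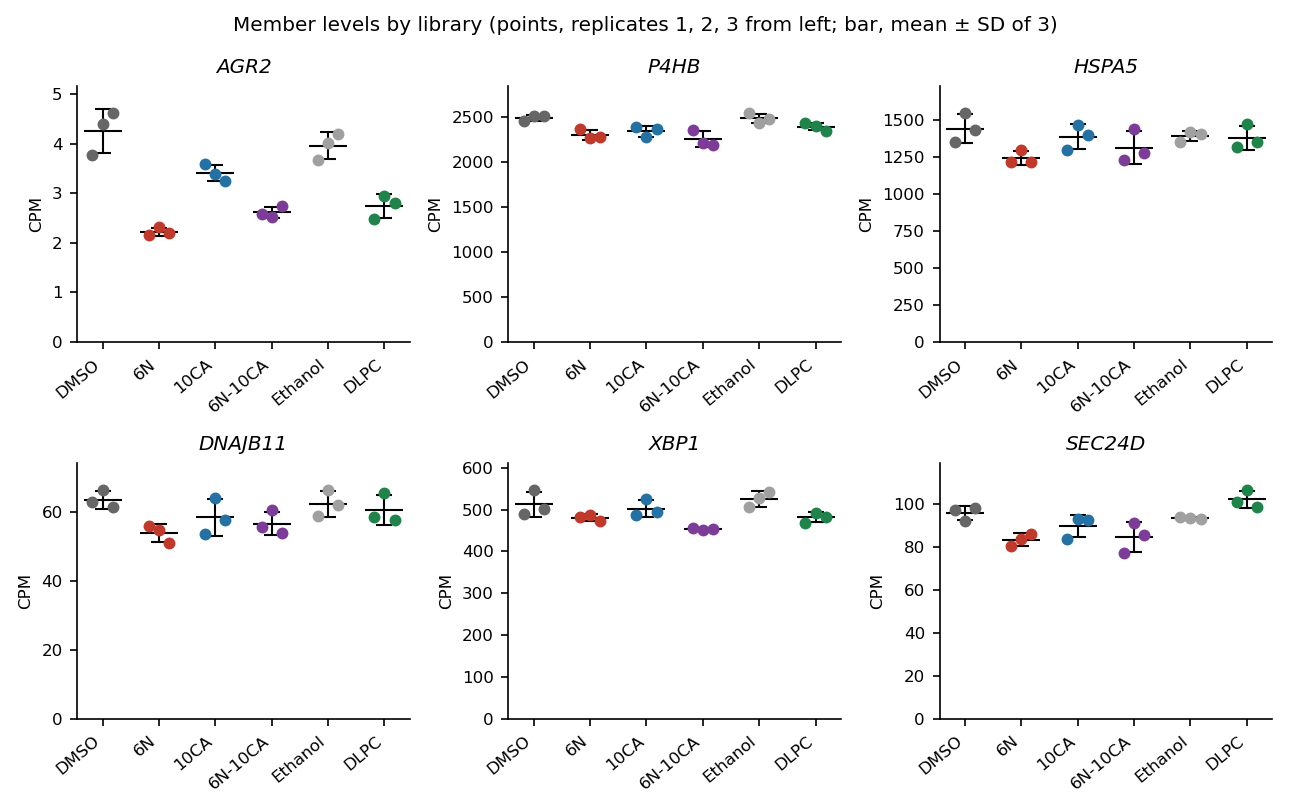
CPM of 6 genes in each library (points, replicates 1, 2 and 3 from left) with the mean and SD of 3 libraries (bars), by group. AGR2 lies at 2.15 to 2.32 CPM with 6N and at 3.76 to 4.61 CPM with DMSO. The other 5 genes, none of them called without the block, span at most 1.38-fold from the lowest library to the highest.

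Most of the other genes lay slightly below the DMSO level with 6N and with 6N-10CA. The log2 fold change was below 0 for 37 of 38 genes with 6N (median -0.10) and for 35 with 6N-10CA (median -0.11), where 50.2% and 49.8% of all genes tested were below 0 and the medians over all genes were -0.00060 and 0.00065. With 10CA 26 of 38 were below 0 (median -0.04; 50.2% of all genes), and with DLPC against Ethanol 28 of 38 (median -0.03; 49.7%). All 3 libraries lay below all 3 DMSO libraries for 17 of the 38 genes with 6N and above them for 0, compared with 7.31% and 6.26% of all genes. The corresponding counts were 7 lower and 4 higher for 10CA (6.3% and 6.54% of all genes), 13 and 0 for 6N-10CA (7.26% and 7.53%), and 8 and 2 for DLPC (9.39% and 9.79%). The genes were chosen with results of these data known, so these counts are given as a description and carry no test.

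**Figure D3:**
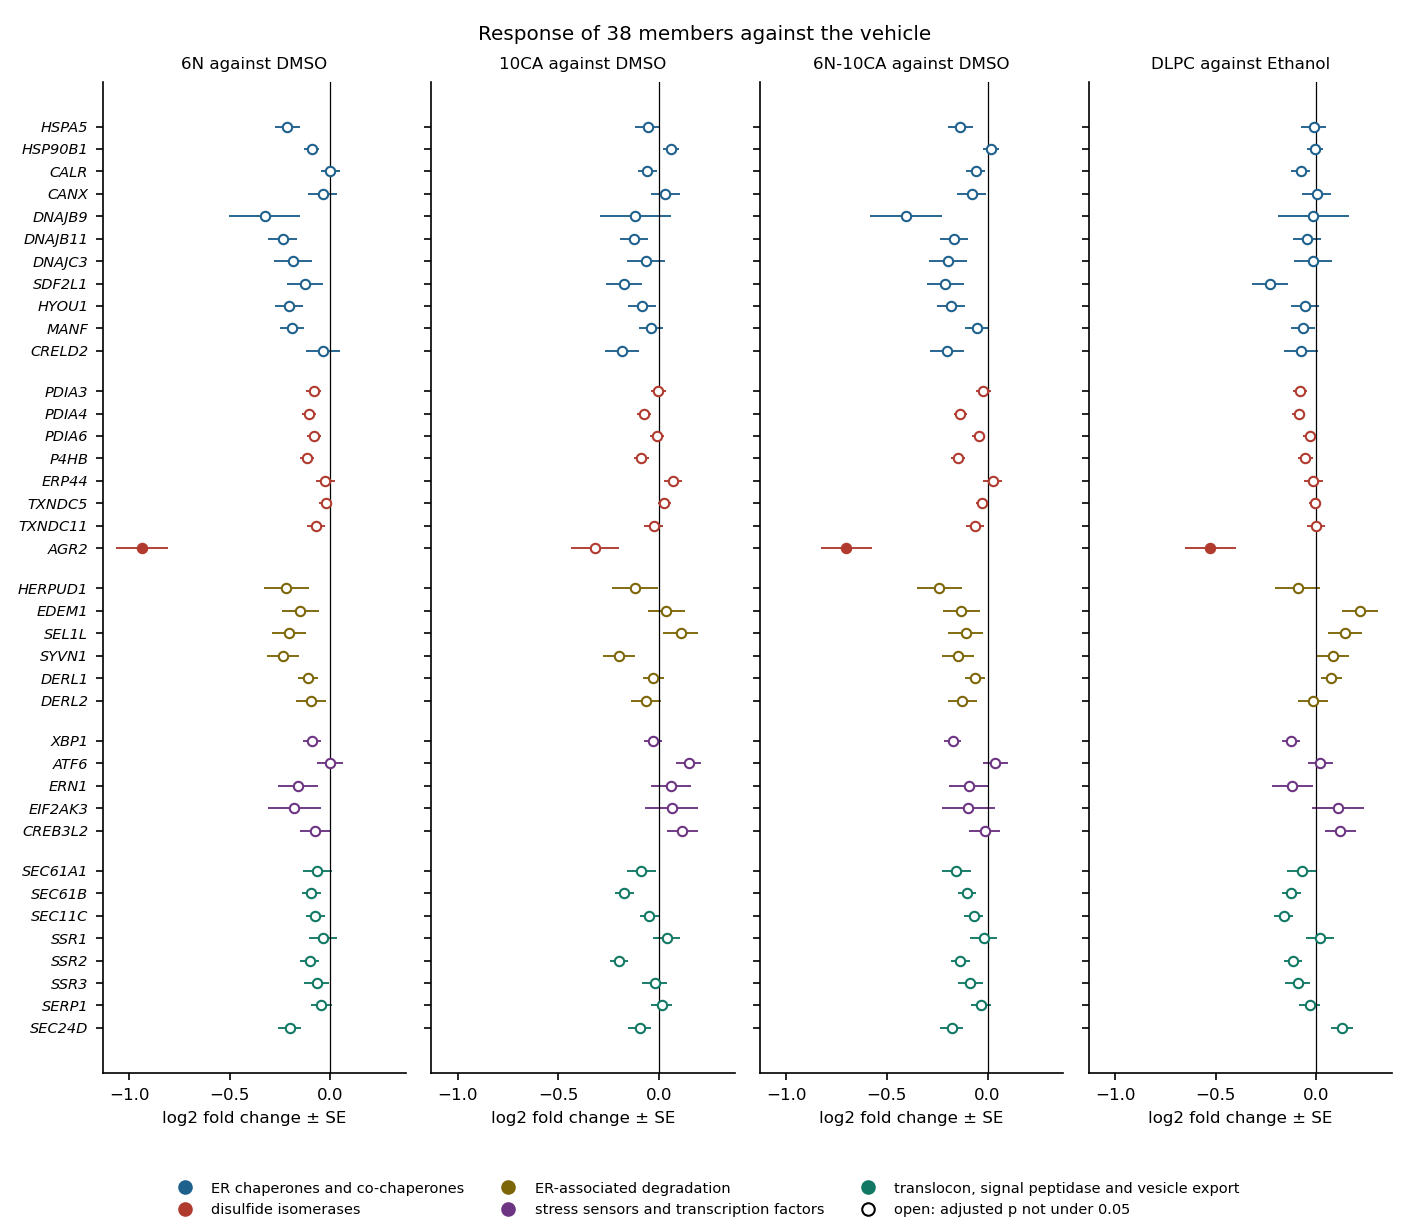
Log2 fold change with its SE for 38 genes in the 4 comparisons with a vehicle, ordered and coloured by role; filled points passed an adjusted p of 0.05 and open points did not. Most points of 6N and 6N-10CA lie a little left of 0, and the 3 filled points are AGR2, at -0.94, -0.70 and -0.53.

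Without the block, edgeR, DESeq2 and limma-voom each called 0 of the 11 chaperones and co-chaperones in the 4 comparisons with a vehicle. With the block, edgeR called 5 lower with 6N, 0 with 10CA, 7 with 6N-10CA and 1 with DLPC. Of all genes 2.39%, 0.0879%, 2.12% and 3.14% fell with the block. At an unadjusted p under 0.05 without the block there were 5 lower with 6N, 1 with 10CA, 6 with 6N-10CA and 1 with DLPC. The shares of all genes lower at that p were 5.29%, 3.6%, 5.14% and 6.2%. The median log2 fold change of the 11 genes was -0.19 for 6N, -0.06 for 10CA, -0.17 for 6N-10CA and -0.04 for DLPC. HSPA5, encoding BiP, the chief chaperone of the ER and the partner that holds the sensors inactive, was measured at 1351, 1546 and 1433 CPM with DMSO and 1215, 1300 and 1219 CPM with 6N. It had 1300, 1466 and 1403 CPM with 10CA and 1230, 1439 and 1276 CPM with 6N-10CA, and both sets overlapped the DMSO libraries. With Ethanol it had 1356, 1417 and 1406 CPM and with DLPC 1317, 1471 and 1356 CPM, again with overlap. The 6N libraries were all below the DMSO libraries, with a log2 change of -0.21 (95% interval -0.34 to -0.08; adjusted p = 0.148 by edgeR). Without the low-count filter the same change had an adjusted p of 0.0103 by edgeR. The other values of HSPA5 were -0.05 for 10CA, -0.13 for 6N-10CA and -0.01 for DLPC. With the block, HSPA5 was called lower with 6N (-0.21, adjusted p = 0.000135 by edgeR) and 6N-10CA (-0.14, adjusted p = 0.0159 by edgeR). It was not called with 10CA or DLPC (adjusted p = 0.455 and 0.855 by edgeR with the block).

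DNAJB11, the co-chaperone that delivers substrates to BiP, had 62.7, 66.3 and 61.3 CPM with DMSO, 55.8, 54.6 and 51.0 with 6N, 53.4, 63.9 and 57.6 with 10CA, and 55.4, 60.3 and 53.8 with 6N-10CA. It lay below the DMSO libraries with 6N (-0.24, SE 0.07; adjusted p = 0.159 by edgeR) and with 6N-10CA (-0.17). Ethanol libraries had 58.6, 66.3 and 61.8 CPM and DLPC libraries 58.3, 65.3 and 57.5 CPM, which overlapped (-0.04). Exons of DNAJB11 overlap those of TBCCD1 on the other strand, so its reads may be shared. HYOU1, an exchange factor for BiP that carries ERSE-II matches, ranged over the 18 libraries from 152 to 201 CPM, with log2 changes of -0.21 for 6N and -0.18 for 6N-10CA.

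Of the 8 disulfide isomerases, AGR2 fell as described, and edgeR without the block called none of the other 7 in a comparison with a vehicle. With the block, edgeR called 3 of the 8 lower with 6N and 0 with 10CA (2.39% and 0.0879% of all genes fell). It called 3 with 6N-10CA and 2 with DLPC (2.12% and 3.14%). Beside AGR2 these were PDIA4 and P4HB with 6N and with 6N-10CA, and PDIA4 with DLPC. DESeq2, beside AGR2, called PDIA4 with 6N and with 6N-10CA, and P4HB with 6N-10CA. PDIA4, an abundant isomerase, had 948, 984 and 971 CPM with DMSO, 915, 890.1 and 892 with 6N, 916, 926 and 918 with 10CA, and 868, 906 and 870.1 with 6N-10CA. All 9 small-molecule libraries lay below the 3 DMSO libraries. Ethanol libraries had 978, 979 and 968 CPM and DLPC libraries 918, 939 and 897 CPM, also without overlap. Its log2 changes were -0.11 (6N), -0.07 (10CA), -0.13 (6N-10CA) and -0.09 (DLPC), each with an SE of 0.03 and adjusted p-values of 0.205, 0.695, 0.104 and 0.246 by edgeR.

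P4HB, which also serves as a subunit of the collagen prolyl hydroxylase, had 2457, 2513 and 2510.0 CPM with DMSO and 2355, 2211 and 2190.5 CPM with 6N-10CA, a log2 change of -0.15 (SE 0.04; adjusted p = 0.11 by edgeR). With 6N it had 2363, 2264 and 2276 CPM (-0.12) and with 10CA 2391, 2275 and 2369 CPM (-0.09), all below the DMSO libraries. Ethanol libraries had 2541, 2437 and 2482 CPM and DLPC libraries 2433, 2402 and 2351 CPM, just apart (-0.05).

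Of the 6 genes tested for ER-associated degradation, edgeR without the block, DESeq2 and limma-voom each called 0 against a vehicle. With the block, edgeR called HERPUD1 and SYVN1 lower with 6N and HERPUD1 with 6N-10CA. Those are 2 and 1 of the 6 (2.39% and 2.12% of all genes fell), and 0 were called with 10CA and DLPC (0.0879% and 3.14%). At an unadjusted p under 0.05 without the block there were 3 lower with 6N, 1 lower with 10CA, 1 lower with 6N-10CA and 1 higher with DLPC. Of all genes, 5.29% were lower with 6N, 3.6% with 10CA and 5.14% with 6N-10CA, and 6.84% were higher with DLPC. The median log2 change was -0.18 for 6N, -0.05 for 10CA and -0.13 for 6N-10CA, against 0.08 for DLPC. SYVN1, the ubiquitin ligase HRD1, had 41.4, 40.3 and 45.4 CPM with DMSO, 38.2, 34.6 and 35.3 with 6N, 36.6, 34.1 and 39.996 with 10CA, and 42.1, 33.5 and 39.5 with 6N-10CA. The 6N and 10CA libraries lay below the DMSO libraries (-0.23 and -0.20), and those of 6N-10CA overlapped them (-0.15). Ethanol libraries had 39.6, 35.4 and 38.3 CPM and DLPC libraries 39.8, 38.8 and 41.4 CPM (0.08). Exons of SYVN1 overlap those of FAU and MRPL49. The highest value of DLPC in the set was that of EDEM1, a lectin that hands misfolded glycoproteins to degradation, at 0.22 (adjusted p = 0.299 by edgeR).

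Of the 5 sensors and transcription factors, edgeR without the block and limma-voom called 0 against a vehicle, and DESeq2 called XBP1 with 6N-10CA. With the block, edgeR called 0 with 6N and 10CA. It called XBP1 alone lower with 6N-10CA (adjusted p = 0.0057; 2.12% of all genes fell) and with DLPC (0.0269; 3.14%). At an unadjusted p under 0.05 without the block there were 0 with 6N, 1 higher with 10CA, and 1 lower each with 6N-10CA and DLPC. Of all genes, 3.38% were higher with 10CA, and 5.14% and 6.2% lower with 6N-10CA and DLPC. XBP1, whose mRNA is spliced by IRE1 to give a potent activator, had 489.6, 547 and 501 CPM with DMSO and 457, 452 and 454 CPM with 6N-10CA. These groups did not overlap (log2 change -0.17, 95% interval -0.27 to -0.08; adjusted p = 0.116 by edgeR), and against Ethanol in place of DMSO the change was -0.21, with an adjusted p of 0.0435 by edgeR. The 6N libraries, at 483, 488 and 472 CPM, lay just below DMSO (-0.09), and the 10CA libraries, at 487, 527 and 495 CPM, overlapped it (-0.03). Ethanol libraries had 506, 528 and 543 CPM and DLPC libraries 469, 493 and 483 CPM, without overlap (-0.13; adjusted p = 0.203 by edgeR).

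ATF6 had 38.1, 36.4 and 36.3 CPM with DMSO and 40.3, 41.8 and 40.7 CPM with 10CA, the latter all higher (0.15, 95% interval 0.02 to 0.28; adjusted p = 0.68 by edgeR). It had 39.2, 33.8 and 37.7 CPM with 6N and 37.7, 38.6 and 37.5 with 6N-10CA, both overlapping DMSO. Ethanol libraries had 38.9, 35.5 and 38.8 CPM and DLPC libraries 41.3, 35.4 and 38.1 CPM.

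ERN1 had 19.8, 16.1 and 17.8 CPM with DMSO, 17.0, 16.6 and 14.5 with 6N, 19.6, 18.7 and 17.7 with 10CA, and 17.9, 15.1 and 17.5 with 6N-10CA. EIF2AK3 had 32.4, 35.6 and 36.6 CPM with DMSO, 30.1, 26.8 and 35.4 with 6N, 29.5, 42.0 and 37.8 with 10CA, and 26.0, 34.0 and 37.7 with 6N-10CA. Libraries of both sensor genes overlapped between each treatment and its vehicle. With Ethanol and DLPC, ERN1 had 19.8, 19.0 and 16.1 against 17.98, 15.1 and 17.6 CPM, and EIF2AK3 32.2, 36.5 and 39.3 against 36.1, 38.8 and 41.5 CPM. The 95% intervals against the vehicle ran from -0.37 to 0.27 for ERN1 and from -0.46 to 0.38 for EIF2AK3 as their outermost bounds.

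Among the 8 genes of the translocon, signal peptidase and vesicle export, edgeR without the block and limma-voom called 0 against a vehicle. DESeq2 called SEC24D with 6N, SSR2 with 10CA and SEC11C with DLPC. With the block, edgeR called 1 lower with 6N (SEC24D) and 1 with 10CA (SSR2), where 2.39% and 0.0879% of all genes fell. It called 2 with 6N-10CA (SEC61A1 and SEC24D) and 1 with DLPC (SEC11C), where 2.12% and 3.14% fell. At an unadjusted p under 0.05 without the block there were 2 lower with 6N (5.29% of all genes), 2 with 10CA (3.6%) and 4 with 6N-10CA (5.14%). With DLPC there were 3 lower and 1 higher (6.2% and 6.84%). SSR2, a subunit of the translocon-associated TRAP complex, had 159.7, 162 and 167 CPM with DMSO and 146, 136 and 144 CPM with 10CA, without overlap (-0.20, SE 0.05; adjusted p = 0.573 by edgeR). It had 162, 152 and 142 CPM with 6N (-0.10) and 149, 148 and 149 CPM with 6N-10CA (-0.13), the latter again apart from DMSO. Ethanol libraries had 162, 162 and 173 CPM and DLPC libraries 155, 149 and 154 CPM (-0.12).

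SEC61B, a subunit of the translocon channel, had 139, 134 and 140.1 CPM with DMSO and 130.2, 118 and 119 CPM with 10CA (-0.17; adjusted p = 0.573 by edgeR). It had 132, 132 and 124 CPM with 6N (-0.09) and 132, 127 and 125 CPM with 6N-10CA (-0.10), and in all 3 cases the treated libraries lay below DMSO. Ethanol libraries had 133, 139 and 144 CPM and DLPC libraries 127, 129 and 126 CPM (-0.12).

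SEC24D, a cargo-binding subunit of the COPII coat, had 97.2, 92.0 and 98.1 CPM with DMSO, 80.2, 83.7 and 85.9 with 6N (-0.20, SE 0.06; adjusted p = 0.128 by edgeR), 83.8, 92.7 and 92.4 with 10CA (-0.10), and 77.2, 91.1 and 85.3 with 6N-10CA (-0.18). It was one of 2 genes, with EDEM1, whose DLPC libraries all exceeded the Ethanol libraries, at 101, 106 and 98.6 against 94.0, 93.1 and 92.7 CPM (0.13; adjusted p = 0.325 by edgeR). The side of the vehicle on which SEC24D lay thus differed between DLPC and the small molecules, but their doses and vehicles differ too, and the difference was not tested.

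SEC11C, a catalytic subunit of signal peptidase, had 146, 137 and 154 CPM with Ethanol and 128, 127 and 135 CPM with DLPC, without overlap (-0.16, SE 0.05; adjusted p = 0.116 by edgeR). Its DMSO libraries, at 139.7, 132 and 134 CPM, overlapped those of 6N (135, 124 and 126) and 10CA (133, 132 and 128) and lay just above those of 6N-10CA (132, 127 and 128), with log2 changes of -0.07, -0.05 and -0.07.

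The genes whose windows held an ERSE or ERSE-II can be set beside those whose windows held neither. Their median log2 change with 6N was -0.09 over 11 genes, against -0.10 over the other 24 genes with a window. With 6N-10CA the medians were -0.13 and -0.11, with 10CA -0.05 and -0.04, and with DLPC -0.06 and -0.02. These are descriptions, and the difference between these sets was not tested.

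Between the small molecules, all at the same dose, 3 pairs were compared. For 10CA against 6N, 1 of 38 genes rose and 0 fell (1.71% of all genes called), and it was again AGR2, at 3.41 ± 0.169 CPM with 10CA and 2.22 ± 0.0837 CPM with 6N (log2 difference 0.62, SE 0.13; adjusted p = 0.0141 by edgeR; n = 3 each). The call was lost without 6N replicate 1 (0.59) or 10CA replicate 1 (0.58), and with only these groups in the fit (adjusted p = 0.138 by edgeR). SEL1L, the adaptor of the HRD1 ligase, was called without 10CA replicate 1 (0.38; adjusted p = 0.0434 by edgeR) and, beside AGR2, without 6N replicate 3 (0.40; adjusted p = 0.0237 by edgeR), which made the counts 1 and 2. Log2 differences were below 0 for 6 of the 38 genes and above 0 for 32 (median 0.08), where 48.8% of all genes tested were below 0 (median 0.0039). There were 9 genes at an unadjusted p under 0.05, all higher with 10CA, where 7.35% of all genes were higher. HSP90B1, the ER member of the HSP90 family, was the nearest to a call, at 927, 951 and 947 CPM with 10CA against 843, 839 and 860.3 CPM with 6N (0.15, SE 0.04; adjusted p = 0.0506 by edgeR); it is named here after its values were seen. DESeq2 called HSP90B1 and SEL1L in this pair and gave no adjusted p for AGR2.

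For 6N-10CA against 6N, 0 of 38 genes were called (1.64% of all genes), with 2 higher at an unadjusted p under 0.05 (7.18% of all genes were higher). For 6N-10CA against 10CA 0 were called (0.23%), with 3 lower at that p (3.8% of all genes were lower). AGR2 differed by 0.23 (95% interval -0.04 to 0.51) in the first pair and by -0.38 (-0.65 to -0.12) in the second. For Ethanol against DMSO 0 of 38 were called (0% of all genes), with 1 higher at an unadjusted p under 0.05 (1.59% of all genes). DESeq2 and limma-voom also called 0 of the 38 in these 3 comparisons. For a typical member of the 38, the 95% interval spanned 0.13 on each side of its log2 change in every comparison with a vehicle (median over the genes).

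Libraries with the same replicate number resembled one another in these genes across the groups. HSPA5 was lowest in replicate 1 in all 6 groups, as were HERPUD1, an ER membrane protein of the degradation machinery, and DNAJC3, a BiP co-chaperone. DNAJB9, the BiP co-chaperone ERdj4 and a sensitive target of XBP1, was lowest in replicate 1 and highest in replicate 3 in all 6 groups, at 23.6, 29.2 and 31.6 CPM with DMSO and 16.1, 22.4 and 25.0 CPM with 6N-10CA. These 2 groups overlapped, but at each replicate number the 6N-10CA library was below the DMSO library. Without the block the log2 change of DNAJB9 with 6N-10CA was -0.40 (95% interval -0.78 to -0.03, adjusted p = 0.449 by edgeR). With the block it was -0.41 (adjusted p = 0.00561 by edgeR). DNAJB9, DNAJC3 and HERPUD1 are named here after their values were seen. The labels do not say what a replicate number stands for.

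**Figure D4:**
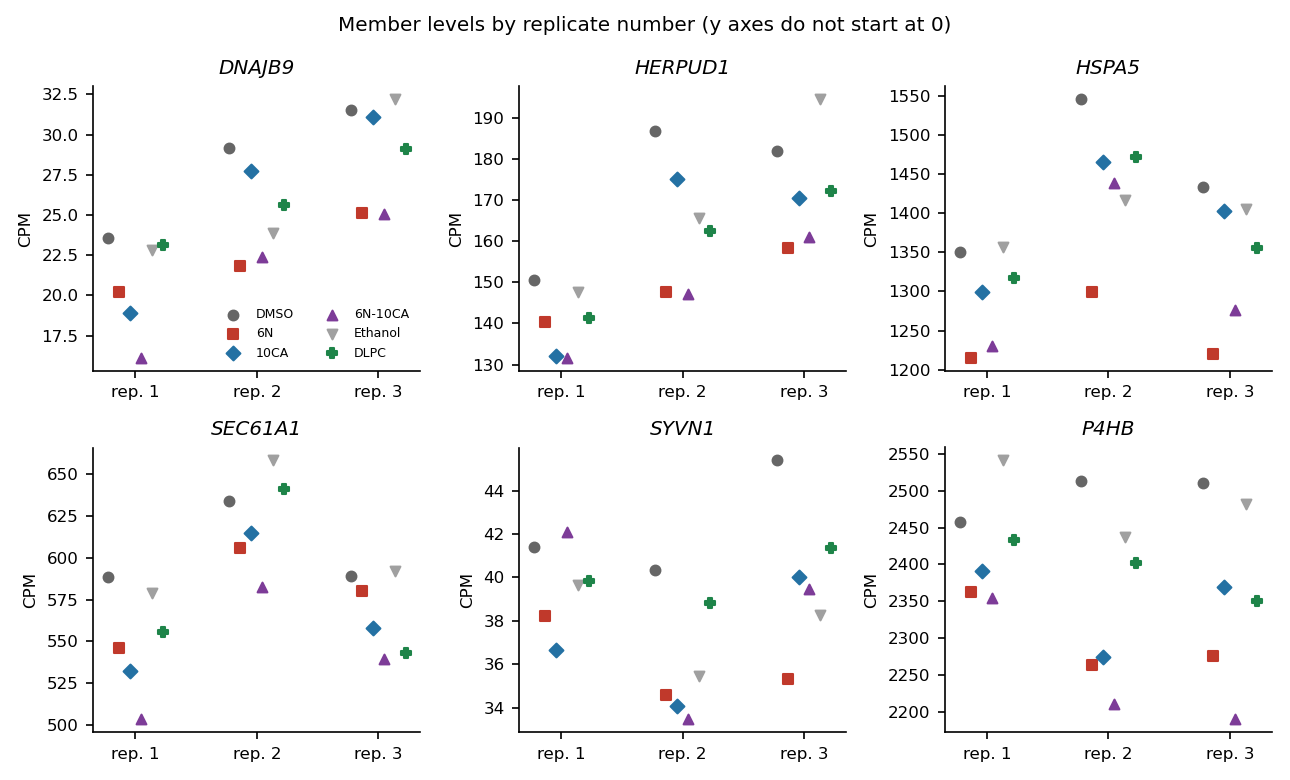
CPM of 6 genes in all 18 libraries, arranged by replicate number, with 1 symbol per group; the y axes do not start at 0. DNAJB9, HERPUD1 and HSPA5 are lowest in replicate 1 in each group. P4HB is highest in replicate 1 in 5 of the 6 groups but was not called by replicate number (adjusted p = 0.149 by edgeR).

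Other genes of the same pathways were read from lists of oxidative folding, degradation, translocation and signal recognition, N-glycosylation, COPII export, the PERK and ATF4 arm, sensor paralogs, and LRH-1 with its ER stress axis. Of the 126 symbols counted, 125 were tested. With 6N 0 rose and 1 fell, with 10CA 0 were called, with 6N-10CA 0 rose and 1 fell, and with DLPC 0 rose and 1 fell. With the block, 3 fell with 6N, 0 with 10CA, 10 with 6N-10CA and 10 with DLPC. Of all genes 2.39%, 0.0879%, 2.12% and 3.14% fell. The block gave 2, 1, 3 and 3 that rose, where 1.34%, 0.128%, 1.68% and 3.6% of all genes rose. At an unadjusted p under 0.05 there were 7 lower and 4 higher for 6N, 10 and 6 for 10CA, 17 and 6 for 6N-10CA, and 11 and 5 for DLPC. Set against the shares of all genes given above, the 6N counts are near the background, and so is the DLPC total in either direction (13.0% of all genes). By direction, the lower DLPC count is above the share of all genes that were lower (6.2%). The higher DLPC count is below the share that were higher (6.84%). For 10CA and 6N-10CA the lower counts are above the shares of all genes that were lower (3.6% and 5.14%). Their higher counts lie nearer to the shares of all genes that were higher (3.38% and 4.77%). These differences were not tested. DESeq2 called 2, 1, 7 and 5 of the 125 in these comparisons and limma-voom 1, 0, 1 and 1, with no share of all genes to set beside them. The medians over the 125 genes were -0.01, 0.02, -0.04 and -0.02.

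The gene that fell with 6N was TRIB3, a pseudokinase induced by ATF4 and CHOP. It had 363, 378 and 366 CPM with DMSO and 314, 315 and 307 CPM with 6N, without overlap (-0.24, SE 0.05; adjusted p = 0.00787 by edgeR), and the call was lost without DMSO replicate 2 (-0.22; adjusted p = 0.0535 by edgeR). TRIB3 was higher with 10CA than with 6N, at 359, 382 and 372 CPM (0.25; adjusted p = 0.00536 by edgeR), and with 6N-10CA than with 6N, at 405, 384 and 411 CPM (0.36; adjusted p = 0.000103 by edgeR). Both of these calls held without each library in turn. Against DMSO it stood at 0.01 with 10CA and 0.12 with 6N-10CA. DDIT4, another stress-induced gene of this arm, also rose in 6N-10CA against 6N, from 587 ± 72.0 to 740 ± 35.3 CPM (n = 3; 0.33, adjusted p = 0.0349 by edgeR), a call lost without 6N replicate 1 or 3 or any 6N-10CA library.

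WFS1, which encodes the ER membrane protein wolframin, fell with 6N-10CA and with DLPC. It had 109, 108 and 111 CPM with DMSO and 95.6, 86.0 and 90.0 CPM with 6N-10CA (-0.27, SE 0.05; adjusted p = 0.0191 by edgeR), and 107, 112 and 109 CPM with Ethanol against 96.9, 95.9 and 87.0 CPM with DLPC (-0.23, SE 0.05; adjusted p = 0.0275 by edgeR). Neither pair of groups overlapped. The first call was lost without any DMSO library or without 6N-10CA replicate 2 or 3 (-0.31 to -0.23 over the 6 omissions), and the second without any Ethanol library or without DLPC replicate 3 (-0.26 to -0.18). FKBP11, an ER prolyl isomerase, was lower with 10CA, at 10.7 ± 0.138 CPM, than with 6N, at 13.9 ± 0.812 CPM (n = 3; -0.37, adjusted p = 0.029 by edgeR). That call was lost without 6N replicate 1 or 2 or any 10CA library. With only the compared groups in the fit, edgeR gave WFS1 adjusted p-values of 0.144 (6N-10CA) and 0.0715 (DLPC), FKBP11 0.0892 and DDIT4 0.0994, so that these 4 calls were lost.

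LRH-1 itself is known to take part in the resolution of ER stress, by inducing the kinase PLK3, which phosphorylates ATF2. PLK3 had 9.70 ± 0.626 CPM with DMSO, 9.52 ± 0.987 with 6N, 10.2 ± 0.446 with 10CA, 8.83 ± 1.35 with 6N-10CA, 8.89 ± 0.554 with Ethanol and 8.97 ± 0.59 with DLPC (mean ± SD, n = 3). Its 95% intervals of the log2 change against the vehicle lay within -0.36 and 0.29. ATF2 ranged from 77.7 ± 5.33 CPM with 6N to 85.7 ± 0.687 CPM with DLPC (n = 3), with log2 changes against the vehicle of -0.02 to 0.09. NR5A2, the gene of LRH-1, PLK3 and ATF2 were called in none of the comparisons with a vehicle.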

How the data were processed

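RNA sequencing of 18 HepG2 libraries (6 groups of 3) was analysed. Gene counts were used as the authors deposited them, whole numbers with no normalization. GRCh38 and DESeq2 are named in the submitters' processing notes. Not given in the sources used here: aligner, counting tool and annotation. Nextera XT libraries from amplified cDNA, per the labels' protocols, do not mark strand, so reads of overlapping or antisense genes cannot be told apart (22 of the 39 genes share exon bases with another gene). Here filterByExpr (edgeR 4.0.16, R 4.3.3; minimum count 10, minimum total 15) kept 14797 genes. All 18 libraries entered 1 fit with a mean per group and TMM scaling, tested with edgeR's quasi-likelihood test (two-sided), with Benjamini-Hochberg adjustment over all genes tested and a threshold of 0.05. CPM use TMM-scaled library sizes. The fit was tested on simulated data. Alternatives were RLE scaling, DESeq2 1.42.0, limma-voom (limma 3.58.1), no filter, the compared groups alone, the other vehicle, each library left out, and the replicate number as a block. DMSO was taken as vehicle of the small molecules and Ethanol of DLPC from knowledge of the study; the labels do not say. Replicates of a group differed by more than sampling noise (chi-square per gene 4.48 to 13.7), and whether they are separate cultures is not stated, so p-values measure the spread between these samples. Per-library values are given for HSPA5, XBP1, ATF6, ERN1, EIF2AK3, every called gene and the 4 smallest p-values of each comparison with a vehicle. The genes and lists were chosen with earlier results of these data known.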

Additional observations from a re-analysis of the deposited data

How the results depend on the processing

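By the count of the 38 genes called, 6N against DMSO gave 1 without each library in turn (1 to 1), 2 without the low-count filter and 3 with DESeq2. For 10CA against DMSO it was 0 throughout the omissions (0 to 0) and 1 with DESeq2. For 6N-10CA against DMSO it was 0 to 1 over the omissions, 0 with only the compared groups, 2 against Ethanol and 4 with DESeq2. For DLPC against Ethanol it was 0 in every omission (0 to 0), 0 with limma-voom, without the filter, with only the compared groups and with robust dispersions, and 2 with DESeq2. The robust setting came first, and the default was adopted after its results were seen. For 10CA against 6N it was 0 to 2 over the omissions, 0 with only the compared groups, and 2 with limma-voom, without the filter and with DESeq2. The cause of these shifts was not tested. The log2 changes that turned sign were all of genes that were not called. Against the other vehicle, SYVN1 stood at 0.019 for 6N-10CA and -0.082 for DLPC. Over the omissions of 1 library, ATF6 ran from -0.048 to 0.062 with 6N and from -0.038 to 0.070 with DLPC, EIF2AK3 from -0.051 to 0.193 with 10CA and from -0.212 to 0.038 with 6N-10CA, ERN1 from -0.014 to 0.142 and XBP1 from -0.061 to 0.018 with 10CA, and DNAJB11 from -0.108 to 0.0010 and HSPA5 from -0.064 to 0.020 with DLPC. With the replicate number as a block the counts were 11 fallen for 6N (2.39% of all genes fell), 1 for 10CA (0.0879%), 14 for 6N-10CA (2.12%) and 5 for DLPC (3.14%), 4 risen for 10CA against 6N (4.14% rose), 2 called for 6N-10CA against 6N (1 fallen, 4.42%, and 1 risen, 3.9%), 1 fallen for 6N-10CA against 10CA (0.96%) and 0 for Ethanol against DMSO (0.0811% fell, 0.0405% rose). Over alternatives of that blocked fit, added after the data were seen, the first 4 of these counts ran from 5 to 14, 0 to 4, 8 to 15 and 0 to 11. The replicate number itself was called in 18 of the 38 genes (28.2% of all genes). Whether the numbers pair the samples was checked by the correlation of deviations from the group means, after blocked calls had been seen. Over all 14797 genes tested, 7 of the 24 compared pairs exceeded 0.1; above 5, 10 and 50 CPM 23, 24 and 24 did, and every one of 18 libraries correlated best with its own number over all genes and at each of these levels. Over all genes the median correlation was 0.071 for pairs with the same number and -0.037 for pairs with different numbers. Same-number libraries were thus more alike, but not every compared pair exceeded 0.1 over all genes. A level chosen afterwards would have decided whether all did. The report therefore rests on the fit without the block, and calls gained with the block are not read as stronger effects. In the fit without the block the spread between replicate numbers counts as error, so a gene not called there is not shown to be unchanged. The shared coefficient of variation between libraries was 6.96% without the block and 4.42% with it. Depth limits AGR2 most, at 66 to 141 counts per library.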
